A study of Homo sapiens with 6 samples.

Results

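The complement genes of liver examined here were C3, C5, CFB, CFI, C1R, C1S, C4BPA, C4BPB and MASP1. Their rows were found by gene symbol in the array's probe annotation. The list was drawn up with earlier results of these data known, so it is not a blind sample of genes. All 9 were measured, each by 1 probe set, among 24241 genes in all. RNA came from HepG2, a human line derived from a liver tumour, whose cells still make many of the plasma proteins of hepatocytes. Of the 6 arrays, 3 were hybridised with RNA from cells given 0.75 µM verteporfin for 24 hours and 3 with RNA from cells given only DMSO, the solvent, for the same time. Verteporfin is a porphyrin photosensitiser that is also described as a disruptor of the YAP-TEAD transcription complex, and the labels do not state light exposure. The comparison asked which transcripts differed between cells given the compound and cells given the solvent.

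Complement is a cascade of plasma proteases that tags and lyses targets, and hepatocytes are the main source of most of its soluble proteins. The classical pathway starts when C1q binds a target and activates the proteases C1r and C1s, and the lectin pathway uses the related MASP proteases. Both lead to cleavage of C3, the central component, while the alternative pathway builds its own C3 convertase from C3b and factor B. Cleavage of C5 then starts the lytic complex. C4b-binding protein and factor I are soluble inhibitors that limit the convertases, and factor I is the protease that inactivates C3b and C4b.

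Transcripts of 7 of the 9 genes fell with verteporfin and those of 0 rose. C3, CFB and C5, the inhibitors CFI, C4BPA and C4BPB, and the protease C1S were between 2.06-fold and 15.0-fold lower. C1R and MASP1 did not pass the test and lay below the median signal of all probe sets on each of the 6 arrays. Among all 24241 genes, 14.3% were called lower and 14.3% higher (limma with Benjamini-Hochberg adjustment over all genes, threshold 0.05), and among the 12257 genes above the median signal 25.6% were called lower and 26.3% higher. All 7 genes that fell were also at least 2-fold lower, as were 3.01% of all genes, those below the median signal included. The median log2 difference of the 9 genes was -1.57, against 0.00 over all genes. Values are RMA log2 levels, a log2 difference is verteporfin minus DMSO, and SE is limma's moderated standard error. In RNA of whole cultures, less transcript per cell and fewer cells that express a gene cannot be told apart. The labels do not say whether the replicates were separate cultures, so the spread behind each p-value may be technical only.

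As a description, the 160 bases before the gene start are shown for 5 of the 7 lower genes. These 5 have an entry in the RefSeq promoter table (GRCh38.p14). Whether the falls share a promoter feature was not tested. The segments are chr6:31945935-31946094, plus strand, for CFB, chr9:121074866-121075025, minus strand, for C5, chr4:109802000-109802159, minus strand, for CFI, chr1:207104073-207104232, plus strand, for C4BPA, and chr1:207088700-207088859, plus strand, for C4BPB. Each is written 5′ to 3′ along the gene, and capitals mark matches to the searched motifs.
CFB: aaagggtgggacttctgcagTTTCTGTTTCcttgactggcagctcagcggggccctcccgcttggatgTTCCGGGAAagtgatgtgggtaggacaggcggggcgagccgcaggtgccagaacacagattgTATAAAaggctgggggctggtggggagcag
C5: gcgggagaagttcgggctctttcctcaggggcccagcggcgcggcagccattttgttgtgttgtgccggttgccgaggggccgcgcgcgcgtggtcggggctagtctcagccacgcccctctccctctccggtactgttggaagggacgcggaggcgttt
CFI: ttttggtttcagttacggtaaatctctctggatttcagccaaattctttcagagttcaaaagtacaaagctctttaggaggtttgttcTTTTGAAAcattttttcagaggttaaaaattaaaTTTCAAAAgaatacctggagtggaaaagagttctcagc
C4BPA: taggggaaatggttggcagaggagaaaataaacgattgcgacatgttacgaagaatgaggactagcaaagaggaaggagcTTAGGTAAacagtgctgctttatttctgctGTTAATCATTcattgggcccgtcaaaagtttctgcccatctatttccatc
C4BPB: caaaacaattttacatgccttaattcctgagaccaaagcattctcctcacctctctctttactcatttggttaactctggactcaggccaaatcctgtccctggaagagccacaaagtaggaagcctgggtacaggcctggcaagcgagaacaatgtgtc

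The motifs were searched on either strand in the 250 bases before the start of 17287 measured genes, 7 of the 9 complement genes included. C3 and C1S have no entry in the promoter table and were not searched. The search used TTNNGNAA for C/EBP factors, TTCNNNGAA for STAT factors, TGATGNAAT for ATF4 with C/EBP, TATAAA for the TATA box, and degenerate motifs of 10 bases for NF-kB, HNF1 and interferon regulatory factors. Of the 5 lower genes searched, 3 (CFI, C4BPA and C4BPB) held the C/EBP letters, against 28.9% of all promoters searched. C1R, which did not pass, held them as well. The promoters of CFI, C4BPA and C4BPB hold fewer G and C bases than the median promoter, as given below. The fixed C/EBP letters are mostly A and T, so the 28.9% is not a like background for them. In the segments above, CFI has 2 C/EBP matches, at bases -72 to -65 and -38 to -31, and C4BPA has 1 at -80 to -73. C4BPA also has a more distant match at -211 to -204 and C4BPB has its match at -230 to -223, both outside the printed segments. The HNF1 motif was found in C4BPA alone, at -50 to -41, and in 0.243% of all promoters. CFB held the STAT letters at -92 to -84 (6.34% of all promoters), the interferon motif at -140 to -131 (2.68%) and a TATA box at -30 to -25 (9.31%). The NF-kB motif (5.48%) and the ATF4 letters (0.636%) were in 0 of the 7. C5 held none of the 7 motifs, and 69.2% of its bases were G or C, against 38% in CFI, 40.4% in C4BPA, 44.4% in C4BPB, 60% in CFB and a median of 61.6% over all promoters. Some searched letters can overlap one another, and a match describes the sequence only.

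The 2 proteases that start the classical pathway differed in how well they were measured. C1S, which cleaves C4 and C2, read 5.88, 6.05 and 6.21 in verteporfin replicates 1, 2 and 3, against 6.97, 7.08 and 7.21 in DMSO. All 3 verteporfin arrays lay below all 3 DMSO arrays, and C1S fell by 1.04 on the log2 scale (SE 0.10), or 2.06-fold, with an adjusted p of 0.000158 (limma). C1R, which activates C1s, read 4.30, 4.61 and 4.25 in verteporfin and 4.61, 4.67 and 4.62 in DMSO. Its groups did not overlap either, but verteporfin replicate 2 lay only just under the lowest DMSO array. The C1R difference of -0.25 (SE 0.10) did not pass (adjusted p = 0.114), and it passed without verteporfin replicate 2 (-0.36, adjusted p = 0.0079) and without replicate 2 of both groups (-0.34, adjusted p = 0.0245). C1R and C1S are neighbours on chromosome 12, with 0 protein-coding genes between them in the RefSeq annotation.

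MASP1, a protease of the lectin pathway, read 4.48, 4.36 and 4.27 in verteporfin and 4.44, 4.53 and 4.47 in DMSO, so the groups overlapped. Its difference was -0.11 (SE 0.07, adjusted p = 0.366), with a 95% interval of -0.28 to 0.06. Signal at this height was not separated from background, so the values of C1R and MASP1 do not show whether their transcripts changed.

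C3, the protein on which all 3 pathways converge, read 10.8, 10.8 and 10.7 in verteporfin, against 12.3, 12.3 and 12.4 in DMSO. It fell by 1.57 (SE 0.06), or 2.97-fold, and its SD was 0.056 in verteporfin and 0.0474 in DMSO. CFB, the protease of the alternative pathway convertase, read 7.67, 7.81 and 7.72 in verteporfin and 9.70, 9.48 and 9.47 in DMSO. It fell by 1.82 (SE 0.08), or 3.53-fold. C5, whose cleavage releases the C5a peptide and starts the lytic complex, read 6.31, 6.28 and 6.61 in verteporfin and 8.56, 8.45 and 8.68 in DMSO. It fell by 2.16 (SE 0.11), or 4.48-fold. The groups did not overlap for any of C3, CFB and C5, and their adjusted p-values lay between 3e-06 and 6.22e-06 (limma).

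The soluble inhibitors fell as well. CFI, the protease that cuts C3b and C4b, read 6.12, 6.55 and 6.68 in verteporfin, against 10.4, 10.4 and 10.3 in DMSO. Its verteporfin arrays spread more widely (SD 0.297) than its DMSO arrays (SD 0.0442), and replicate 1 was the lowest. CFI fell by 3.91 (SE 0.14), or 15.0-fold, with an adjusted p of 1.9e-06 (limma), and its log2 difference was the 12th lowest of all 24241 genes. Without verteporfin replicate 1 it was -3.74.

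C4BPA encodes the alpha chain of C4b-binding protein, which carries most of its C4b binding, and C4BPB encodes the beta chain, which binds protein S. C4BPA read 5.65, 5.73 and 5.58 in verteporfin and 8.10, 8.21 and 8.01 in DMSO, and it fell by 2.45 (SE 0.08), or 5.48-fold. C4BPB read 6.98, 7.31 and 7.24 in verteporfin and 8.66, 8.82 and 8.59 in DMSO, and it fell by 1.51 (SE 0.10), or 2.85-fold. The arrays of the 2 groups did not overlap for C4BPA or C4BPB, and the adjusted p-values were 1.46e-06 and 2.82e-05 (limma). The 2 genes are neighbours on chromosome 1, with 0 protein-coding genes between them. PROS1, which encodes the protein S that the beta chain binds and which was singled out after its value was seen, was lower by a log2 difference of -3.03 (SE 0.15, adjusted p = 6.19e-06).

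**Figure D1:**
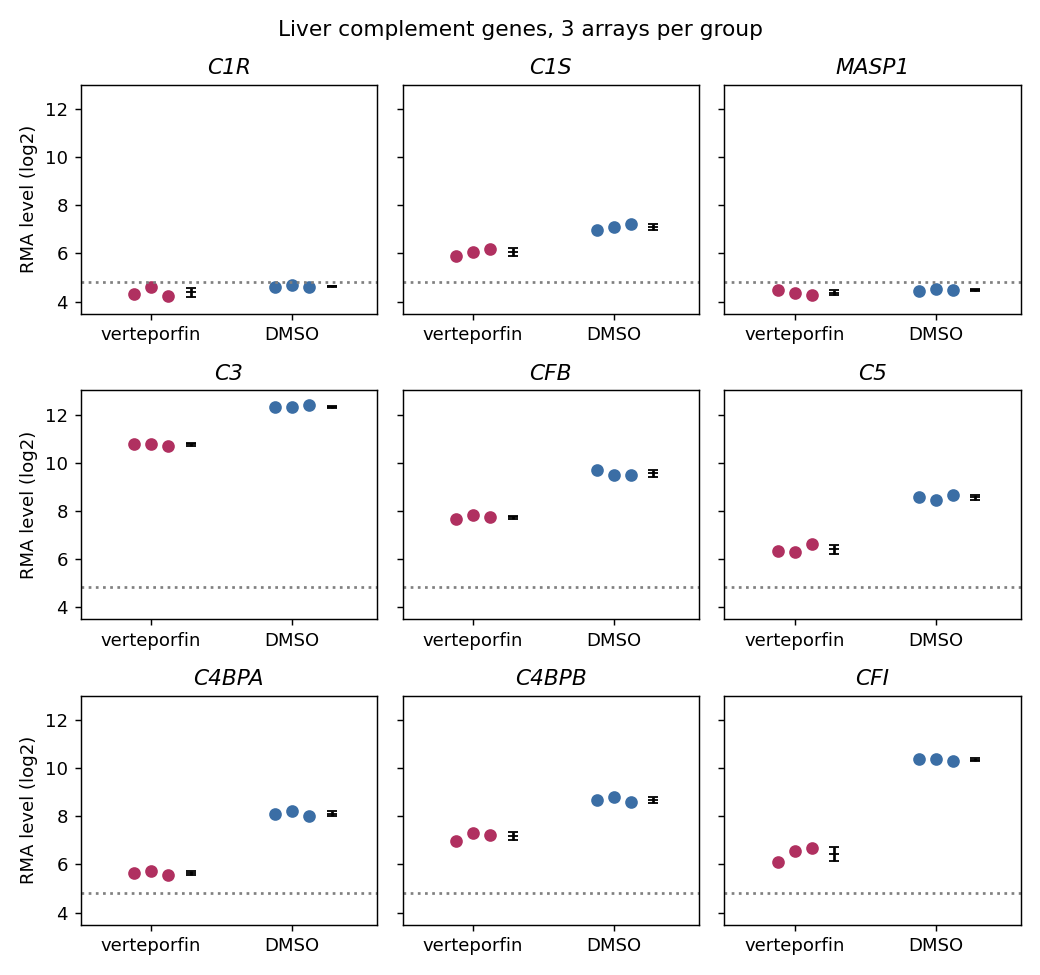
RMA log2 level (vertical axis) of each of the 9 complement genes on the 3 verteporfin and 3 DMSO arrays, with a point per array and the mean ± SD beside each group; the dotted line is the median signal of all probe sets, 4.83. C1R and MASP1 lie below the line in both groups, and the other 7 genes lie above it with verteporfin arrays lower than DMSO arrays.

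For 8 of the 9 genes, MASP1 excepted, all verteporfin arrays lay below all DMSO arrays, as they did for 19.5% of all genes. The share was larger among genes above the median signal, 3784 of 12257, and 7 of the 9 complement genes lay above it. The size of the fall was compared within 5 pairs of complement genes. Each value is the verteporfin minus DMSO difference of the per-array log2 difference between the genes of a pair. CFI minus C3 came to -2.34 (SE 0.20, 95% interval -2.89 to -1.78), and C4BPA minus C4BPB to -0.94 (SE 0.10, -1.22 to -0.67). A negative value means a larger fall in the measured signal of the first gene. Each gene was read by its own probe set, so the pairs compare signal and not amounts of transcript. C3 minus C5 was 0.59 (SE 0.14, 0.19 to 0.99), and C3 minus CFB was 0.25 (SE 0.10, -0.03 to 0.53). C1R minus C1S was 0.80 (SE 0.17, 0.33 to 1.27), with C1R below the median signal in both groups. The intervals use the pooled SD of the per-array differences, are not adjusted over the 5 pairs, and include 0 for C3 minus CFB only. An exact two-sided permutation test gave p = 0.1 for each pair, also after adjustment; 3 against 3 arrays allow no smaller p, so that test could not pass for any pair.

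**Figure D2:**
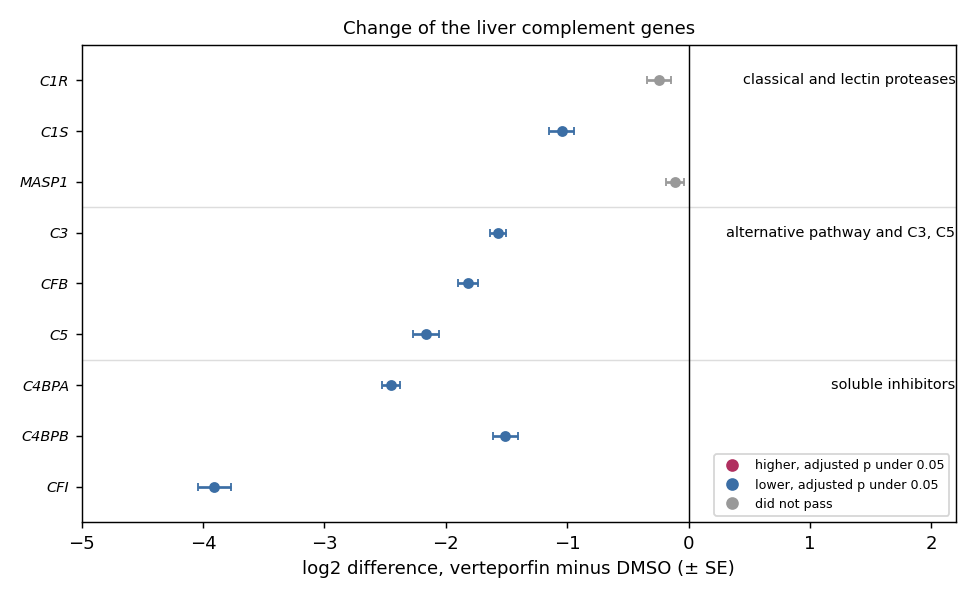
Log2 difference, verteporfin minus DMSO, of the 9 complement genes (points) with the moderated SE (bars), grouped by role; blue points passed the threshold as lower and grey points did not pass. The differences run from -3.91 for CFI to -0.11 for MASP1.

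In each case the genes whose 6 array values, centred on the gene's mean, lay closest to those of a complement gene were looked up as a description. The nearest to C3 were the replication factor GINS2 (Euclidean distance 0.12 log2 units) and the plasma protease inhibitor SERPINA3 (0.134). For CFB they were the replicative helicase subunit MCM2 (0.0859) and the secreted phospholipase PLA2G2A (0.137), and for C5 the mitotic kinesin KIF20A (0.23) and the nuclear lamin LMNB1 (0.244). CFI lay closest to TMT1A (0.329) and the plasma ferroxidase CP (0.354). C4BPA lay closest to the kinase MAP2K6 (0.058) and DCDC2 (0.241), C4BPB to the helicase BRIP1 (0.117) and the decarboxylase DDC (0.118), and C1S to ZNF483 (0.121) and the lipid kinase PIP4K2B (0.135). The distances were taken over 6 arrays in 2 groups, and nothing about shared function is drawn from them.

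Of 47 other complement genes listed, 41 were measured, of which 16 were called lower, 4 higher and 21 did not pass; the rest were not analysed here. Over all genes 14.3% were called lower and 14.3% higher. Their median log2 difference was -0.09, and 20 of the 41 lay above the median signal. Among recognition molecules, MBL2, the mannose-binding lectin that starts the lectin pathway, read 4.0, 4.80 and 4.47 in verteporfin, against 7.91, 8.04 and 8.16 in DMSO. Its verteporfin arrays lay below the median signal, so the log2 difference of -3.61 (SE 0.19) is a difference of measured signal. The other 8 recognition genes, including the C1q chains C1QA, C1QB and C1QC, did not pass, with differences between -0.27 and 0.11.

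C2, which supplies the protease of the classical and lectin C3 convertase, read 7.90, 7.87 and 7.89 in verteporfin and 9.52, 9.36 and 9.37 in DMSO, and it fell by 1.53 (SE 0.07, adjusted p = 4.32e-06). MASP2, the lectin pathway protease that cleaves C4 and C2, fell by 0.52 (SE 0.12), while CFD and CFP, the alternative pathway's factor D and properdin, did not pass. Of 6 terminal components of the lytic complex, 5 were called lower in measured signal: C8A (-1.23, SE 0.11), C7 (-0.86, SE 0.16), C8B (-0.65, SE 0.13), C6 (-0.33, SE 0.10) and C8G (-0.23, SE 0.06). The verteporfin means of C6, C7, C8A and C8B lay below the median signal, as did the DMSO means of C6 and C8B, so the values of C6 and C8B do not show whether their transcripts changed. The calls of C6 and C8G were lost in 8 of 15 and 10 of 16 alternative fits.

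Among the other soluble regulators, CPB2, a plasma carboxypeptidase that inactivates C5a, read 5.69, 6.02 and 6.43 in verteporfin, against 10.8, 10.7 and 10.8 in DMSO, and was 26.3-fold lower. CPN1 (-2.45, SE 0.08) and CPN2 (-1.77, SE 0.09), the subunits of carboxypeptidase N, which trims C3a and C5a, fell too. VTN (-1.43, SE 0.08) and CLU (-0.64, SE 0.06), which encode the inhibitors of the lytic complex vitronectin and clusterin, were lower. SERPING1, the C1 inhibitor, was higher by 0.64 (SE 0.13) in measured signal, and averaged 4.29 in DMSO, under the median of all probe sets.

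The membrane regulators moved both ways. CD55, which speeds the decay of the convertases, read 12.3, 12.2 and 12.3 in verteporfin and 10.8, 10.8 and 10.7 in DMSO, and it rose by 1.5 (SE 0.06), or 2.82-fold. CD46, a cofactor of factor I, fell by 1.0 (SE 0.10), and CD59, which blocks the lytic pore, fell by 1.24 (SE 0.19). Of the 7 receptor genes, C5AR1, the receptor of C5a, read 7.24, 6.79 and 7.55 in verteporfin, against 4.66, 4.13 and 4.22 in DMSO. Its DMSO arrays lay below the median signal, so the difference of 2.86 (SE 0.21, adjusted p = 3.53e-05) is one of measured signal. C5AR2, the other C5a receptor, was called higher by 0.37 (SE 0.07) in measured signal, with both means below the median signal, and C1QBP, a mitochondrial protein that also binds C1q, fell by 0.34 (SE 0.07).

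**Figure D3:**
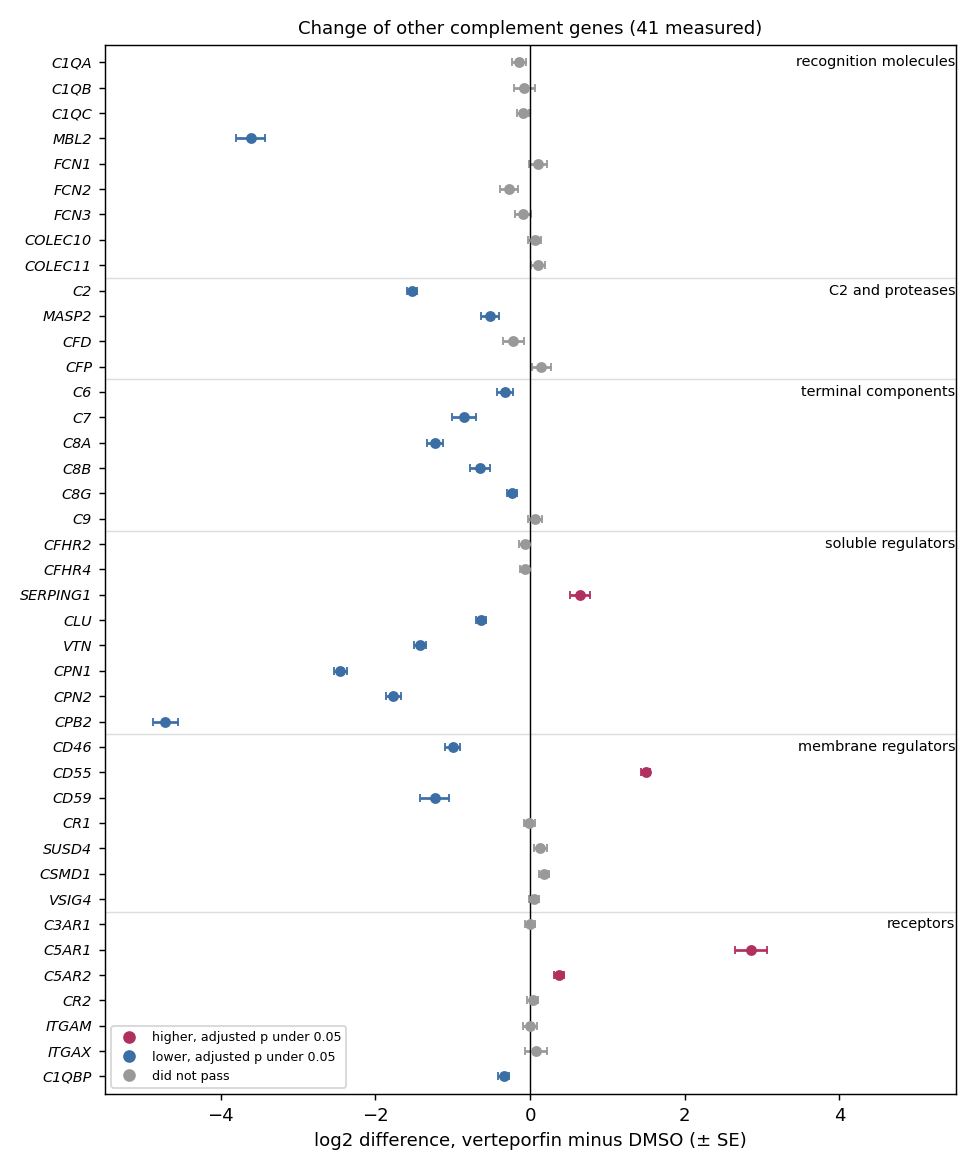
Log2 difference, verteporfin minus DMSO, with the moderated SE for the 41 other complement genes measured, grouped by role; red points passed as higher, blue points as lower and grey points did not pass. CPB2 and MBL2 lie furthest to the left and C5AR1 furthest to the right.

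Complement genes of hepatocytes are known to respond to interleukin 6, interferon gamma, interleukin 1 and tumour necrosis factor, and to depend on C/EBP and other liver transcription factors. Of 16 measured genes of these signalling routes, 12 rose and 4 fell, and among 11 liver transcription factors 2 rose and 5 fell. By their mean over the 6 arrays all lay above the median signal, where 26.3% of genes were called higher and 25.6% lower. SOCS3, 1 of those called higher, averaged 4.63 in DMSO, under the median signal, so its difference is one of measured signal. CEBPB, a C/EBP factor of the acute phase response, rose by 1.98 (SE 0.09) and ONECUT1 fell by 0.99 (SE 0.08), with a verteporfin mean of 4.55 below the median signal. The kinase JAK2 (1.89, SE 0.13), the interferon factor IRF9 (1.79, SE 0.16), the tumour necrosis factor receptor TNFRSF1A (0.87, SE 0.06) and the interleukin 6 receptor IL6R (0.80, SE 0.07) rose. The adjusted p-values of these 6 genes were at most 9.36e-05. STAT3, which acts downstream of interleukin 6, fell by 0.45 (SE 0.06) and CEBPA fell by 0.85 (SE 0.10); both were singled out after their values were seen.

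**Figure D4:**
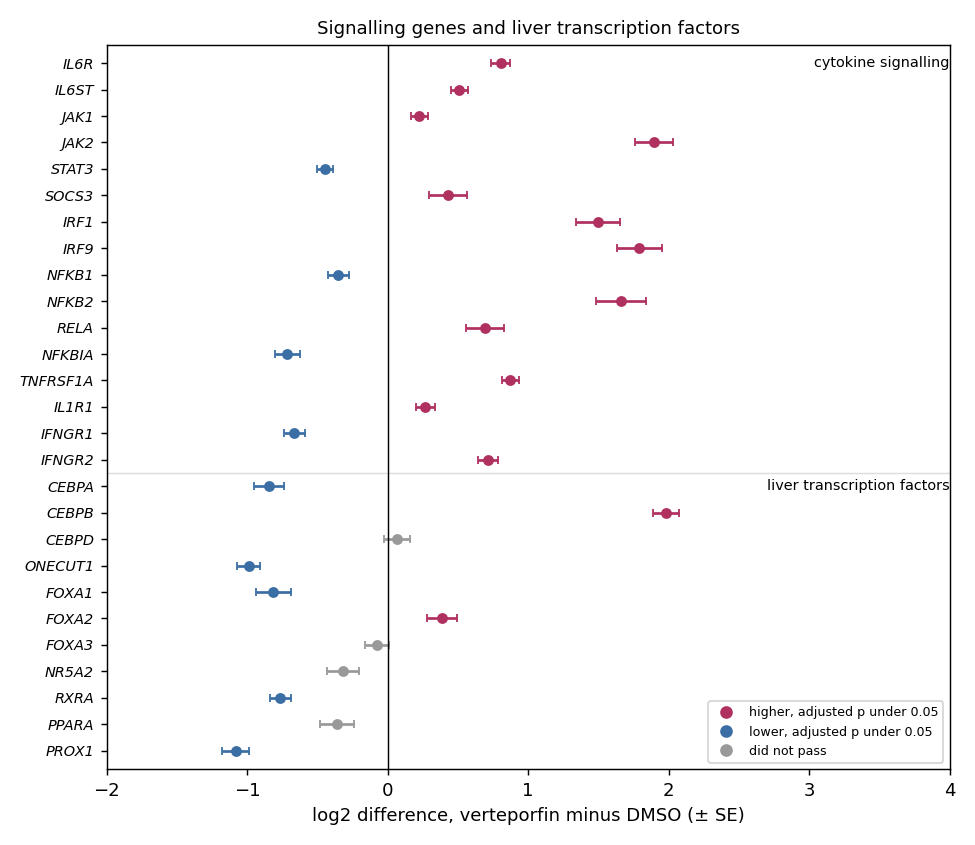
Log2 difference, verteporfin minus DMSO, with the moderated SE for 16 cytokine signalling genes and 11 liver transcription factors; red points passed as higher, blue points as lower and grey points did not pass. JAK2 and CEBPB lie furthest to the right, and PROX1 lies furthest to the left.

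Other plasma protein genes and hepatocyte markers were also called lower, beside 14.3% of all genes and 25.6% of those above the median signal. Of 17 coagulation genes, 10 fell and 0 rose (median -0.83), with FGG (-2.79, SE 0.06), FGB (-2.78, SE 0.11), F5 (-1.49, SE 0.06) and F11 (-1.64, SE 0.08) at the smallest adjusted p. Of 16 acute phase genes, 10 fell and 1 rose (median -1.11); CP (-3.67, SE 0.12) and SERPINA3 (-1.65, SE 0.07) fell. HP was lower (-5.10, SE 0.18) and LCN2 higher (3.28, SE 0.11) in measured signal only, since HP averaged 4.87 in verteporfin, close to the median signal, and LCN2 averaged 4.57 in DMSO, under it. Of 7 hepatocyte markers, 6 fell, and their mean log2 level was 10.5 to 10.7 in verteporfin arrays and 12.1 in DMSO arrays; their part in the change of the complement genes was not tested. Of 6 macrophage markers, 1 (CD68) lay above the median signal in both groups, and the list averaged 5.09 to 5.11 in verteporfin and 5.02 to 5.07 in DMSO. Of 5 endothelial markers, 0 lay above it (3.98 to 4.12 in verteporfin, 4.06 to 4.11 in DMSO), and of 6 stellate cell and fibroblast markers, 2 did (4.93 to 5.02 in verteporfin, 5.09 to 5.14 in DMSO).

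Correlations over all genes were 0.969 to 0.977 between a verteporfin and a DMSO array and 0.995 to 0.997 within a group. Calls in either direction made up 28.5% of all genes.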

How the data were processed

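Total RNA of 6 samples (3 verteporfin, 3 DMSO, grouped by their labels) was measured on biotin-labelled Affymetrix arrays. The deposited values are log2 levels per probe set made by the authors with RMA, per the submitters' processing notes; neither the RMA version nor the array design is given in the sources used here. Values ran from 3.17 to 13.8, which fits a log2 scale, and once sorted were the same on each of the 6 arrays, so a change shared by all transcripts could not be seen. Precision is limited by the number of arrays, and without detection calls dim signal was judged against the median signal, 4.83.

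Of 25582 probe sets, 24244 had 1 symbol, 0 had several and 1338 had none; for 3 symbols the brightest probe set was kept, which left 24241 genes. Verteporfin minus DMSO was fitted by lmFit and eBayes of limma 3.58.1 (R 4.3.3), with p-values adjusted by Benjamini-Hochberg over all genes; the steps were tested on simulated data. The 9 genes and all lists were chosen with earlier results of these data known. The text names the 9 genes, each other complement gene that passed, up to 6 signalling genes or transcription factors and 4 plasma protein genes per list by smallest adjusted p, and the 2 nearest genes of each complement gene that passed. Alternatives changed the variance model, array weights, filter, scaling, probe set choice, replicate block, arrays and call rule. Promoter sequences are RefSeq's.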

Additional observations from a re-analysis of the deposited data

How the results depend on the processing

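The 7 complement genes that fell kept their direction and their calls in all 16 alternative fits of each. Of the 9 genes, 0 were called higher in any fit. Not all of these fits could move a difference. Each gene has 1 probe set, so averaging probe sets left its values the same. The variance model, the filter and the replicate block leave the log2 differences of the 7 genes unchanged. The other scaling shifted arrays by at most 0.00195 relative to one another. The count of lower genes ranged from 7 to 8 when arrays were left out, with C1R as the added gene. With the replicate block it was also 7, and 14 other complement genes were lower against 16 without the block; same-numbered arrays did not deviate together (correlations of -0.02, -0.11 and -0.01), so the numbers were not read as pairs. Of the other complement genes that passed, 12 of 20 kept their call in every alternative fit at the same threshold and 8 lost it in at least 1 (C1QBP, C5AR2, C6, C7, C8B, C8G, MASP2 and SERPING1), mostly where arrays were left out and fewer samples remained. With arrays left out, 11 to 16 of them were lower and 2 to 4 higher. Requiring a 2-fold difference as well left 9 lower and 2 higher, by its construction, and CLU then lost its call beside those 8. The differences within pairs kept their sign when each array was left out. Background correction and normalisation could not be varied, since scanner values were not analysed here.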
